A study of Mus musculus with 10 samples.

Results

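Integrins and other adhesion molecules were followed here as a group of 33 genes, out of 48321 gene symbols counted, in CD4+ T cells from the spleens of WT mice and of KO mice, whose genotype is Satb1 F/F;Thpok-cre. The genes were listed by name and family, and the processing notes say what was known of the data by then: 19 integrin subunits, the selectin ligand Selplg, the hyaluronan receptor Cd44, the immunoglobulin family members Icam1, Icam2, Cd47 and Cd48, the cytoskeletal linkers Tln1, Fermt3 and Vcl, the tetraspanins Cd9, Cd81 and Cd82, and the Ly6 family members Ly6c1 and Ly6c2. All mice were C57BL/6 and carried a GFP reporter of Foxp3, and the study's methods give an average age of 8 to 12 weeks and mixed sexes. The Cre driver, Thpok, acts from commitment to the CD4 lineage onwards, so KO cells had passed the earlier thymic stages with the floxed gene in place. Sorting on GFP, which stands for FoxP3, and on CD25 gave 5 groups of 2 libraries: WT and KO FoxP3+CD25+ cells (Treg), WT and KO FoxP3-CD25- cells (non-Treg), and KO FoxP3+CD25- cells. The library labels imply that each number is a mouse, but do not state it, and p-values measure the spread between these samples. Reads counted on genes ranged from 6094952 to 12410064 per library, and 3 counts, taken as the floor, corresponded to 0.242 to 0.492 CPM, the counts scaled to library size. The floor covers counting error only. Levels are CPM scaled by TMM factors, and groups were compared with edgeR's two-sided quasi-likelihood F-test in a fit of all 10 libraries and 13796 genes. A gene was called when its adjusted p (Benjamini-Hochberg over all genes tested) was under 0.05.

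Integrins are pairs of an alpha and a beta chain that hold a T cell to other cells or to matrix, and their grip is switched on from inside the cell by talin and kindlin binding to the beta tail. In lymphocytes, the beta 2 and alpha 4 integrins serve arrest on vessel walls and contact with other leukocytes, alpha E pairs with beta 7 to bind epithelial E-cadherin, and alpha v pairs with beta 8 to release active TGF-beta. CD44 binds hyaluronan and is the usual surface marker of T cells that have met antigen, while tetraspanins organize integrins and other receptors in the membrane.

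Satb1, the targeted gene, had 379 and 478 CPM in WT Treg libraries, 598 and 534 in KO Treg, 818 and 881 in WT non-Treg, 841 and 682 in KO non-Treg, and 1186 and 993 in KO FoxP3+CD25- libraries. Satb1 was not called in KO against WT cells of the same sort (log2 0.40 ± 0.15 in Treg and -0.16 ± 0.15 in non-Treg cells). Counts per gene do not resolve the floxed exons, so they check neither the deletion nor the genotype labels, and KO means "labelled KO" throughout. Foxp3 followed the sort, with 618 to 739 CPM in the 4 Treg libraries, 361 and 318 in KO FoxP3+CD25- cells and 18.0 to 38.9 in the 4 non-Treg libraries. Il2ra, which encodes CD25, had 627 to 760 CPM in Treg libraries and 16.8 and 16.7 in KO FoxP3+CD25- cells. The T cell markers summed to 2935 to 3954 CPM in all 10 libraries, with Cd4 the most abundant of them. Markers of other spleen cells were mixed. Ms4a1 of B cells, Lyz2 of myeloid cells and Ncr1 of NK cells each stayed at or below 1.53 CPM, and the platelet gene Pf4 had 0. The myeloid genes Csf1r and Cst3, however, had 12.5 to 17.6 and 23.3 to 46.5 CPM, the platelet gene Gp1ba 3.48 to 6.78, and the NK gene Klrb1c up to 3.95. Of the CD8 T cell genes, Cd8b1 had 8.24 to 14.1 CPM and Cd8a 0.131 to 4.14 over the 10 libraries. The B cell gene Cd79b had 14.4 to 19.1 CPM in the 4 Treg libraries and 0.826 to 5.13 in the other 6, and Mpo of neutrophils had 5.65, 2.43 and 0.496 CPM in the KO replicate 1 libraries (Treg, FoxP3+CD25- and non-Treg) and 0 to 0.256 in the other 7. Cd79b was called higher in Treg cells of both genotypes (log2 3.86 in WT and 1.83 in KO), and the dendritic cell gene Zbtb46 in WT (2.25). What they share with the Treg results was not tested. Both libraries of WT replicate 1 stood apart in sex-linked genes, with 14487 and 16362 counts of Xist and 0 on 4 chromosome Y genes. The other 8 libraries had at most 4 counts of Xist and 3039 to 4750 on the Y genes.

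Of the 33 adhesion genes, 29 passed the filter on low counts. Itga1, Itgax, Itgb4 and Itgb6, partners in collagen, leukocyte and epithelial integrins, did not pass it, with at most 9 counts in any library. Levels between genes were compared per kb of exon. Itgb7 was highest, at 310 to 345 CPM per kb over the 5 group means, followed by Itgb2 at 190 to 236 and Itgal, its partner in LFA-1, at 122 to 186. Tln1 (talin), Selplg (the P-selectin ligand) and Itgb1 came next, and Itgb1 had by far the wider range of these, from 33.2 to 230 CPM per kb. At the other end, Itga2, Itgam, Itgb5, Ly6c2, Vcl and Itga7 had group means of at most 3.25 CPM per kb. The plot of levels per kb shows these positions together with the spread between groups.

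**Figure D1:**
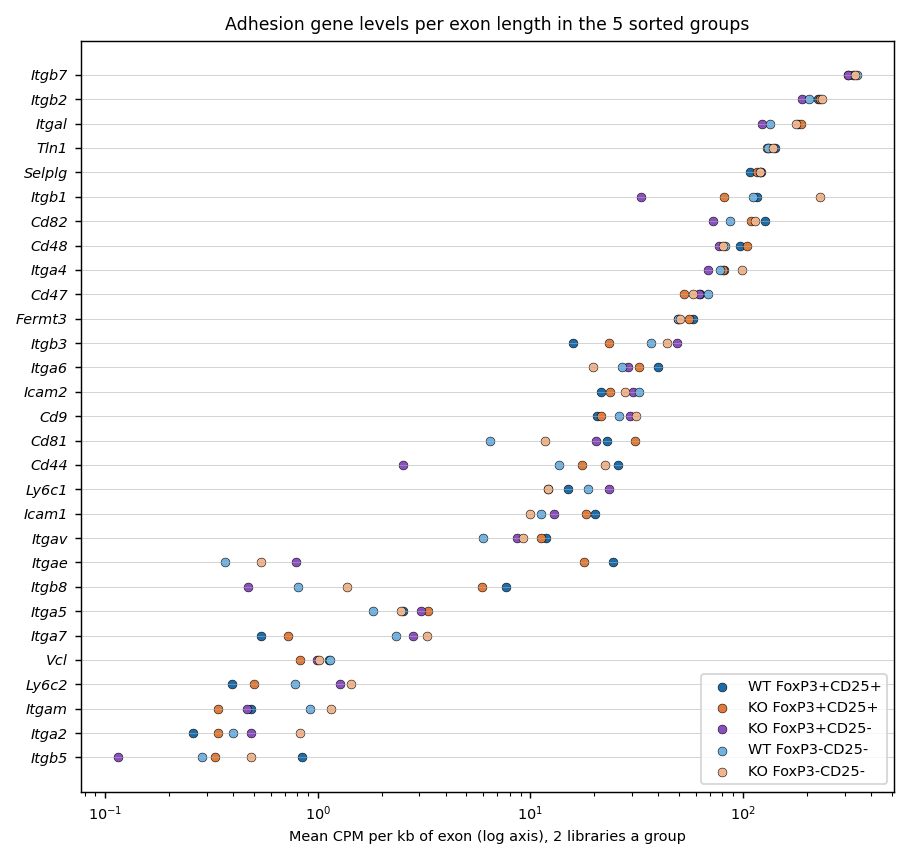
Mean CPM per kb of exon (x, log axis) in the 5 sorted groups (colours, 2 libraries each) for the 29 tested adhesion genes (y, ordered by the mean of the groups). Itgb7, Itgb2 and Itgal lie at the top with little spread, while Itgb1, Cd44, Itgae and Itgb8 spread widely between groups.

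The first comparison asked how Treg cells differ from non-Treg cells within each genotype. In WT, 8 of the 29 tested members were higher in Treg cells, against 7.15% of all genes, and 3 were lower, against 3.75%. In KO, 5 of the 29 members were higher, against 3.52% of all genes, and 6 were lower, against 2.81%. The median log2 fold change of the members was 0.097 in WT and -0.090 in KO, and that of all genes was -0.021 and -0.0012. The members called thus went both ways, and each genotype has its own libraries in this comparison. Leaving out both libraries of WT replicate 1 left 8 members called in WT, all among the 11, with Cd82, Icam1 and Icam2 lost (log2 0.61, 0.69 and -0.30). Leaving out any 1 of the 4 KO libraries left 6 to 7 of the 11 called in KO, and the genes lost are named below. Markers of T cell state differed as well. Of 9 naive T cell genes, 7 were lower in WT Treg and 6 in KO Treg cells, with medians of -1.20 and -0.89. Of 13 memory and effector genes, Ahnak was higher and Ifng lower in WT Treg cells (1.04 and -1.18), and Cxcr3, Ifng, Nkg7 and Tbx21 were lower in KO Treg cells (-2.11, -2.40, -2.00 and -2.37). Their part in the results that follow was not tested.

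**Figure D2:**
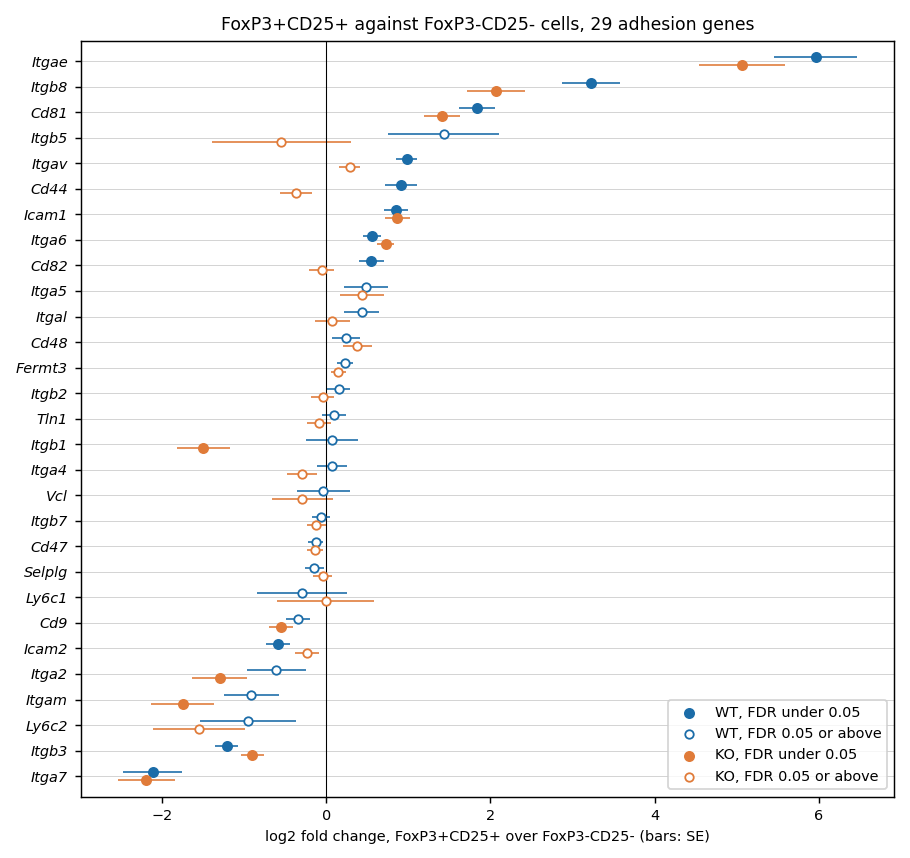
log2 fold change (x, bars are SE) of Treg over non-Treg cells for 29 adhesion genes (y) in WT (blue) and KO (orange), filled where the adjusted p was under 0.05. Itgae and Itgb8 lie far to the right and Itga7 and Itgb3 to the left in both genotypes, while Itgb1, Cd44 and Cd82 lie apart between genotypes.

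Itgae, the alpha E chain known as CD103, had 156 and 67.2 CPM in WT Treg libraries against 2.65 and 0.722 in WT non-Treg libraries. In KO it had 79.3 and 84.6 CPM in Treg libraries against 2.98 and 1.98 in non-Treg libraries. Treg libraries of both genotypes lay far above all non-Treg libraries, and WT Treg replicate 1 was the highest of them. The log2 fold change was 5.97 ± 0.51 (SE; adjusted p = 4.03e-05) in WT and 5.07 ± 0.52 (adjusted p = 0.000274) in KO. Over the alternative fits, including those with libraries left out, it ranged from 5.24 to 7.22 in WT and from 4.78 to 5.36 in KO. As in all these bulk samples, fewer cells that make a transcript and less of it per cell cannot be told apart. Its partner Itgb7 was not called in any comparison, with 849 to 1035 CPM over the 10 libraries, so the alpha chain moved in these cells and the beta chain passed no test.

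Itgb8, the beta chain that pairs with alpha v to activate TGF-beta, had 102 and 67.9 CPM in WT Treg libraries and 11.4 and 6.50 in WT non-Treg libraries. In KO, Treg libraries had 64.4 and 66.0 CPM and non-Treg libraries 9.10 and 21.3. The groups did not overlap in either genotype. It was higher in Treg cells by log2 3.22 ± 0.36 in WT (adjusted p = 0.000219) and 2.07 ± 0.35 in KO (adjusted p = 0.00524). The alternative fits, including those with libraries left out, gave 2.89 to 3.69 in WT and 1.61 to 2.84 in KO. Itgav, the alpha chain of this pair, had 143 and 110 CPM in WT Treg against 63.0 and 65.4 in WT non-Treg libraries, and 126 and 114 against 96.9 and 100 in KO. Only the WT difference of Itgav was called (log2 0.98 ± 0.13, adjusted p = 0.000654), where KO gave 0.28. Itga6, the alpha chain of laminin receptors, had 338 and 380 CPM in WT Treg and 234 and 255 in WT non-Treg libraries, and 275 and 310 against 173 and 182 in KO. All 4 Treg libraries were above all 4 non-Treg libraries. Its log2 fold change was 0.56 ± 0.11 in WT and 0.72 ± 0.11 in KO (adjusted p = 0.00618 and 0.00259), and the WT call was lost without WT non-Treg replicate 1 (0.48).

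Other integrin chains were lower in Treg cells. Itgb3, the beta chain of the vitronectin receptor, had 87.0 and 99.9 CPM in WT Treg and 195 and 239 in WT non-Treg libraries, and in KO 143 and 133 against 284 and 231. Here too the Treg libraries of both genotypes stood clear of the non-Treg libraries, on the low side. The log2 fold change was -1.21 ± 0.14 in WT (adjusted p = 0.000337) and -0.90 ± 0.14 in KO (adjusted p = 0.00352). Itga7, a laminin-binding alpha chain best known from muscle, had 5.76 and 2.95 CPM in WT Treg against 15.8 and 21.9 in WT non-Treg libraries, and 8.09 and 3.67 against 22.8 and 29.8 in KO. It was lower by a similar size in both genotypes, with log2 -2.12 ± 0.36 in WT and -2.19 ± 0.35 in KO (adjusted p = 0.00288 and 0.00360). With libraries left out or another fit, this ranged from -2.88 to -1.68 in WT and from -2.84 to -1.71 in KO. Itgb3 and Itga7 were thus low wherever Itgae and Itgb8 were high among Treg and non-Treg libraries. Among low-level chains, Itgam, the alpha chain of Mac-1, had 1.98 and 1.44 CPM in KO Treg against 6.29 and 5.27 in KO non-Treg libraries (log2 -1.75 ± 0.38, adjusted p = 0.0207). Itga2, a collagen receptor chain, had at most 2.75 CPM in KO Treg against 5.29 and 6.46 in KO non-Treg libraries (log2 -1.30 ± 0.33, adjusted p = 0.0451). In WT both genes were also lower in Treg libraries without overlap, and neither was called, with Itgam at 1.79 and 3.07 against 4.72 and 4.54 CPM (log2 -0.92 ± 0.33) and Itga2 at 2.05 and 1.65 against 2.40 and 3.30 (-0.61 ± 0.36). The KO libraries did not overlap either, but both KO calls were lost when any 1 of the 4 libraries was left out, with log2 -1.98 to -1.53 for Itgam and -1.49 to -1.11 for Itga2. DESeq2, edgeR's legacy method and a fit of the compared groups alone did not call Itga2 (log2 -1.29, -1.28 and -1.30).

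Among tetraspanins, Cd81, a partner of CD4 and of integrins in T cells, had 62.6 and 68.9 CPM in WT Treg against 15.4 and 21.6 in WT non-Treg libraries. In KO it had 88.0 and 89.9 CPM in Treg against 41.9 and 25.6 in non-Treg libraries. Every Treg library was above every non-Treg library, and the KO non-Treg libraries lay between. Cd81 was higher in Treg cells by log2 1.84 ± 0.22 in WT (adjusted p = 0.000365) and 1.41 ± 0.22 in KO (adjusted p = 0.00302). Cd82, which restrains integrin-dependent movement, had 397 and 364 CPM in WT Treg and 281 and 239 in WT non-Treg libraries (log2 0.55 ± 0.15, adjusted p = 0.0421). In KO the Cd82 libraries overlapped, at 292 and 366 CPM in Treg and 303 and 381 in non-Treg cells (log2 -0.056). The WT call of Cd82 was lost without WT Treg replicate 1 (0.49), WT non-Treg replicate 1 (0.66) or WT non-Treg replicate 2 (0.44). Cd9 had 44.9 and 42.8 CPM in KO Treg against 69.1 and 59.6 in KO non-Treg libraries (log2 -0.55 ± 0.14, adjusted p = 0.0465). In WT, Cd9 had 36.2 and 47.5 CPM in Treg against 54.2 and 52.2 in non-Treg libraries (log2 -0.34 ± 0.14), and was called only without WT Treg replicate 2 (-0.54). The KO call of Cd9 was lost without a filter on low counts, with DESeq2, and without any 1 of the 4 libraries (log2 -0.66 to -0.44).

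Icam1, a ligand of LFA-1, had 93.3 and 81.9 CPM in WT Treg against 46.6 and 50.8 in WT non-Treg libraries, and 71.0 and 87.4 against 38.2 and 48.6 in KO. Treg libraries were above non-Treg libraries throughout, by log2 0.85 ± 0.15 in WT and 0.86 ± 0.15 in KO (adjusted p = 0.00325 and 0.00596). The KO call was lost without KO non-Treg replicate 1 or KO Treg replicate 2 (0.70 for each). Icam2, another LFA-1 ligand, went the other way in WT, with 34.6 and 47.5 CPM in Treg against 64.4 and 58.7 in non-Treg libraries (log2 -0.59 ± 0.15, adjusted p = 0.0248). This call was lost without WT Treg replicate 1 (-0.37), WT non-Treg replicate 1 (-0.52) or WT non-Treg replicate 2 (-0.65), and in a fit of the compared groups alone (-0.56). Icam2 in KO had 44.1 and 45.7 CPM in Treg and 54.1 and 51.8 in non-Treg libraries and was not called.

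The abundant leukocyte integrins and their activators were not called between Treg and non-Treg cells with group means. Itgal had 975 and 792 CPM in WT non-Treg against 1321 and 1065 in WT Treg libraries, without overlap (log2 0.43 ± 0.21). With the mouse as a block, pairing same-numbered libraries within a genotype, Itgal was called in WT, as was the scarce Itgb5, at 0.206 to 4.48 CPM in WT libraries (log2 0.43 and 1.55). A block for the replicate number alone also called Itgal there (0.43). Itgb2 ranged from 524 to 777 CPM over the 10 libraries, Tln1 from 1195 to 1549, and Itga4, of the receptor for VCAM-1, from 916 to 1579. Fermt3 (kindlin-3), which activates beta 2 integrins, stayed between 281 and 348 CPM. The talin partner Vcl had 5.19 to 12.3 CPM, Itga5, a fibronectin receptor chain, 7.12 to 17.6, and Selplg 427 to 544. Cd47, the "do not eat me" ligand, ranged from 323 to 432 CPM and Cd48, a ligand of 2B4, from 87.3 to 139. None of these genes was called in any of the 9 contrasts of the edgeR fit with group means and the filter.

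**Figure D3:**
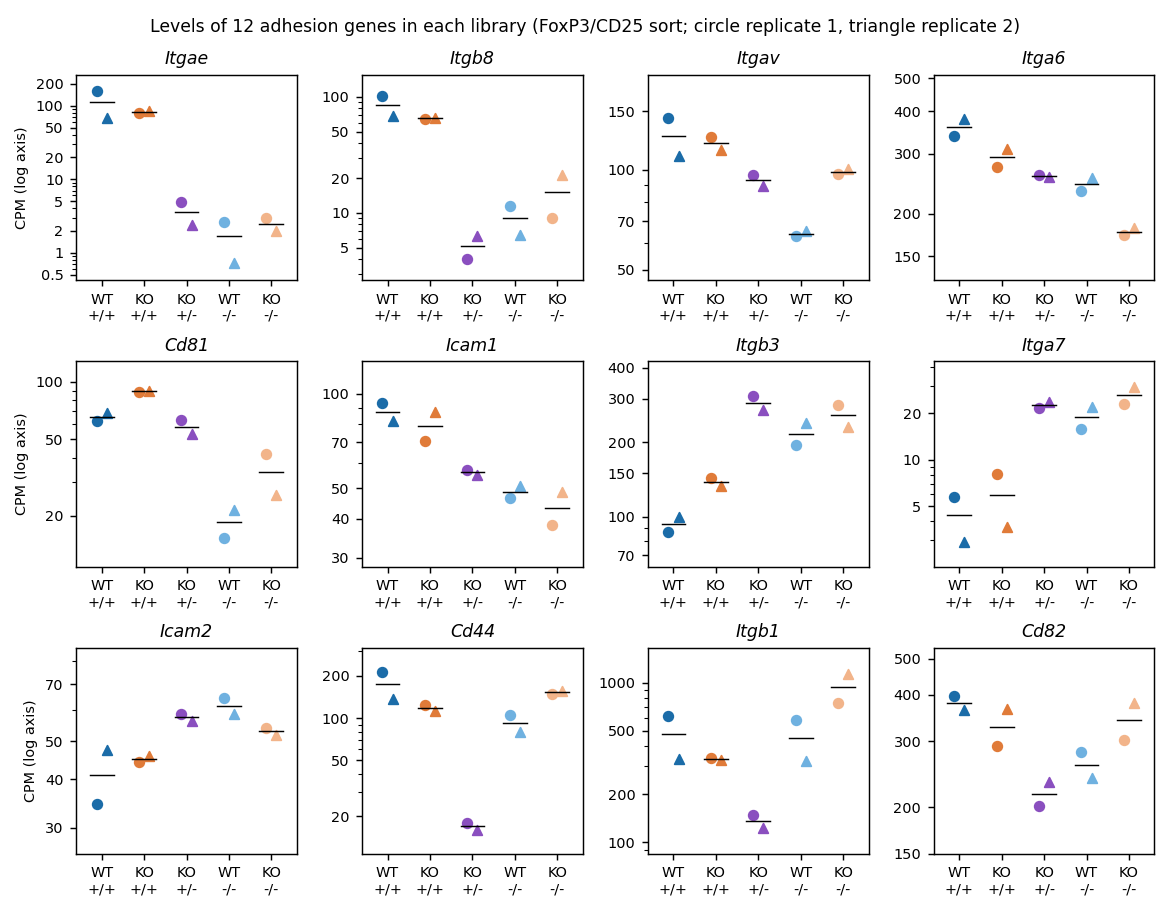
CPM (y, log axis) of 12 adhesion genes in each library by genotype and sort (x; FoxP3 then CD25, circles replicate 1, triangles replicate 2, lines group means). Itgae and Itgb8 are high in the 4 FoxP3+CD25+ libraries alone, and Cd44 and Itgb1 are at their lowest in the 2 KO FoxP3+CD25- libraries.

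Cd44 and Itgb1, the beta chain shared by VLA-4 and other matrix receptors, behaved differently from these genes. Their upstream sequences are shown because both genes were lowest in the same KO group, as described further on. Each run is the 250 bases before the start in RefSeq (GRCm38.p6), in lower case, with any match to a searched motif in capitals: Cd44 at chr2:102901666-102901915 on the - strand and Itgb1 at chr8:128685404-128685653 on the + strand.
Cd44: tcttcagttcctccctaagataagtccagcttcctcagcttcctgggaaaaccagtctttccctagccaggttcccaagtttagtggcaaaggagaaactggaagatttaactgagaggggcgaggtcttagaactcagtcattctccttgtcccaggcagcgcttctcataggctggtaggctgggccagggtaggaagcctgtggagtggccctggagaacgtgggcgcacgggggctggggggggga
Itgb1: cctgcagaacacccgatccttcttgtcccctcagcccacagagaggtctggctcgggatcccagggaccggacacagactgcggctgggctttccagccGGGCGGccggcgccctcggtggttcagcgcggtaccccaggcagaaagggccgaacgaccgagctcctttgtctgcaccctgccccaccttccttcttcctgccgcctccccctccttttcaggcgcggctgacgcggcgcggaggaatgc
Motifs were searched on both strands: a forkhead motif (TGTTTAC), a RUNX motif (TGTGGTT), the GC box (GGGCGG) and the CCAAT box (CCAAT). The Cd44 window held none of them and the Itgb1 window held 1 GC box. Of 31 such windows for 24 member genes, 13 held a GC box, against 32.7% of 32851 windows of all genes, and 5 held CCAAT, against 33.8%. The RUNX letters were in 2 windows, both of Ly6c2, against 4.40% of all windows, and the forkhead letters in 0, against 3.17%. The median GC content was 56.4% in the member windows and 52.4% in all windows. A match describes letters only, and its absence says nothing of a factor.

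Cd44 had 212 and 137 CPM in WT Treg libraries against 105 and 80.1 in WT non-Treg libraries, and was called higher in Treg cells (log2 0.91 ± 0.19, adjusted p = 0.00993). That call was lost without WT Treg replicate 1 (0.57) or WT non-Treg replicate 2 (0.73). In KO the order was the reverse, with 124 and 112 CPM in Treg and 148 and 157 in non-Treg libraries (log2 -0.37). The KO difference was not called, but it was with the mouse as a block (log2 -0.37). Itgb1 had 618 and 331 CPM in WT Treg against 584 and 321 in WT non-Treg libraries, so that replicate 1 was high and replicate 2 low in both (log2 0.068). In KO it had 335 and 329 CPM in Treg against 745 and 1130 in non-Treg libraries. The KO groups were far apart, and Itgb1 was lower in KO Treg cells by log2 -1.50 ± 0.32 (adjusted p = 0.0191). The memory and effector genes had a median log2 of -1.48 in the same comparison. The Itgb1 call was lost without KO Treg replicate 1 (-1.51), KO Treg replicate 2 (-1.49) or KO non-Treg replicate 2 (-1.17).

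Whether the Treg against non-Treg difference itself changed with genotype was tested as an interaction. With edgeR and group means, 0 of 29 members were called, as were 0% of all genes. Against 685 of 13796 genes (4.97%), 5 of the 29 members had an unadjusted p under 0.05. These were Cd44 (log2 -1.28 ± 0.27), Itgav (-0.69 ± 0.18), Itgb1 (-1.57 ± 0.45), Cd82 (-0.61 ± 0.22) and Itgb8 (-1.15 ± 0.49), all more negative in KO. The median of the members was -0.21 and that of all genes 0.0057. DESeq2 called 1 member, Cd44, and the share of all genes it called is not given. With the mouse as a block, 3 of 29 members were called, against 1.08% of all genes: Cd44 (log2 -1.27), Itgb1 (-1.55) and Cd82 (-0.61). Within single mice, Cd44 was higher in Treg cells by log2 1.01 and 0.77 in the WT mice and had differences of -0.26 and -0.48 in the KO mice. Itgb1 had differences of 0.083 and 0.042 in the WT mice and -1.15 and -1.78 in the KO mice. The mice of the 2 genotypes did not overlap for either gene, but both genes were picked by tests of these same libraries. The interaction of the memory and effector genes had a median of -0.87, with 0 of 13 called. Without WT Treg replicate 2, the group-mean fit gave log2 -1.58 for Cd44 and -0.88 for Itgav.

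**Figure D4:**
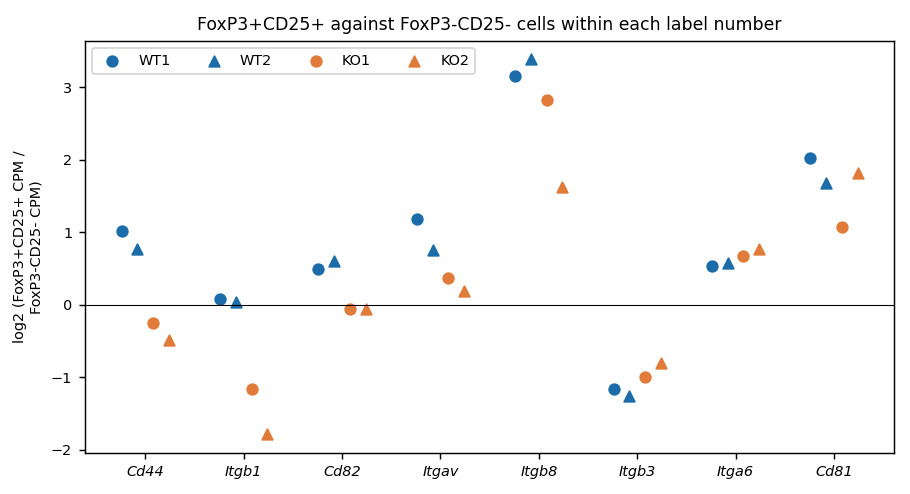
log2 ratio of Treg to non-Treg CPM (y) for 8 adhesion genes (x) within each label number (blue WT, orange KO; circles number 1, triangles number 2). Cd44 lies above 0 in both WT mice and below 0 in both KO mice, Itgb1 lies well below 0 in KO alone, and Itgb3, Itga6 and Cd81 keep their side of 0 in all 4.

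KO and WT cells of the same sort were then compared. In Treg cells, edgeR called 0 of 29 members, against 0.00725% of all genes, and DESeq2 called 0. Against 593 of 13796 genes (4.30%), 4 of the 29 members had an unadjusted p under 0.05. The 4 were Itgb3 (log2 0.56 ± 0.14), Cd44 (-0.56 ± 0.19), Itga6 (-0.29 ± 0.11) and Cd47 (-0.25 ± 0.094). Itgb3, for example, had 143 and 133 CPM in KO Treg against 87.0 and 99.9 in WT Treg libraries. The median of the members was -0.075, and that of all genes -0.0031. In non-Treg cells, edgeR called 0 of 29 members, against 0.145% of all genes. Against 1106 of 13796 genes (8.02%), 8 of the 29 members had an unadjusted p under 0.05. Of these, Itgav (log2 0.62 ± 0.13), Cd81 (0.86 ± 0.23), Cd44 (0.72 ± 0.19), Itga2 (1.07 ± 0.30), Itgb1 (1.05 ± 0.32) and Cd82 (0.40 ± 0.15) were higher in libraries labelled KO, and Itga6 (-0.46 ± 0.11) and Cd47 (-0.24 ± 0.094) lower. Itgav, for example, had 96.9 and 100 CPM in KO non-Treg against 63.0 and 65.4 in WT non-Treg libraries. The median of the members was 0.31 and that of all genes -0.0027. DESeq2 called 3 of them, Cd44, Cd81 and Itgav, and edgeR without a filter called 1, Itgb1. A fit of the compared groups alone called 1, Itgav, and a block for the replicate number called 2, Itga6 and Itgav. The shares of all genes called are not given for these alternative fits, so their counts are not read against a background. The 13 markers of memory and effector CD4 T cells were also compared between these groups. They summed to 1413 and 1713 CPM in KO non-Treg against 1099 and 730 in WT non-Treg libraries, with 0 of 13 called and a median log2 of 0.78. As WT replicate 1 differed from all KO libraries in sex-linked genes, that difference and genotype cannot be fully told apart here. Leaving out both of its libraries leaves 1 WT library in each sort, too few to decide this. The memory and effector list's part in the KO and WT values of Cd44 and Itgb1 was not tested.

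KO FoxP3+CD25- cells carry the Treg factor without its usual surface marker, and the question was which of the other sorted groups they resemble in adhesion genes. Against KO non-Treg cells, 1 of 29 members was higher, against 0.319% of all genes, and 2 were lower, against 1.35%. Against KO Treg cells, 2 of 29 members were higher, against 2.25% of all genes, and 5 were lower, against 4.76%. The median log2 of the members was -0.085 in the first and -0.17 in the second comparison, against 0.0060 and 0.0037 for all genes. These comparisons share the FoxP3+CD25- libraries. With the mouse as a block, 10 of 29 members were called against KO non-Treg cells, where 787 of 13796 genes (5.70%) were. Against KO Treg cells, 15 of 29 members were called, where 2090 of 13796 genes (15.1%) were.

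Cd44 differed most from KO non-Treg cells, with 17.9 and 16.1 CPM against 148 and 157 in KO non-Treg and 124 and 112 in KO Treg libraries. Both libraries lay below all 8 others, whose lowest value was 80.1 CPM. The log2 fold change was -3.17 ± 0.22 against KO non-Treg cells (adjusted p = 0.000158) and -2.80 ± 0.22 against KO Treg cells (adjusted p = 6.29e-05). Itgb1 had 148 and 123 CPM, against 745 and 1130 in KO non-Treg and 335 and 329 in KO Treg libraries. These, too, were the lowest of the 10 libraries. Itgb1 differed by log2 -2.79 ± 0.34 from KO non-Treg cells (adjusted p = 0.00277) and by -1.29 ± 0.33 from KO Treg cells (adjusted p = 0.0375). The first Itgb1 call was lost without KO FoxP3+CD25- replicate 2 (-2.66), and the second without any 1 of the 4 libraries (-1.43 to -1.16).

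Some of the 13 listed markers of memory and effector CD4 T cells were also lower in KO FoxP3+CD25- cells. The 13 markers summed to 394 and 434 CPM in KO FoxP3+CD25- libraries, against 1413 and 1713 in KO non-Treg, 1089 and 1078 in KO Treg, 1686 and 1072 in WT Treg and 1099 and 730 in WT non-Treg libraries. Ahnak was the most abundant of them, and was lower than in KO non-Treg cells by log2 -2.07. Of the 13, 8 were lower than in KO non-Treg cells and 0 higher, and 4 were lower than in KO Treg cells. Of the defining genes, Tbx21 and Ifng were lower than in KO non-Treg cells by log2 -3.98 and -5.32. The list's part in the Cd44 and Itgb1 values was not tested. The naive T cell list, with Tcf7 most abundant, summed to 7117 and 7370 CPM in these cells, against 7158 and 6785 in KO non-Treg and 3950 and 3882 in KO Treg libraries. Of its 9 genes, 6 were higher than in KO Treg cells, and Cd79b was lower (log2 -2.22).

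Members that differed between Treg and non-Treg cells were then followed in KO FoxP3+CD25- cells. Itgae had 4.85 and 2.41 CPM, against 79.3 and 84.6 in KO Treg libraries (log2 -4.56 ± 0.49, adjusted p = 0.000331), and it overlapped KO non-Treg libraries. Itgb8 had 4.04 and 6.35 CPM, below both KO Treg (log2 -3.61 ± 0.40, adjusted p = 0.000383) and KO non-Treg libraries (log2 -1.54 ± 0.43). The second Itgb8 difference was not called, but it was with the mouse as a block (-1.54), without a filter (-1.53) and without KO non-Treg replicate 1 (-2.00). Itgb3, at 307 and 269 CPM, was higher than in KO Treg cells (log2 1.06 ± 0.14, adjusted p = 0.00124), as was Itga7, at 21.8 and 23.5 CPM (log2 1.98 ± 0.35, adjusted p = 0.00605). Without KO Treg replicate 2 the Itga7 call was lost (1.49). Cd82, at 202 and 233 CPM, was lower than in KO Treg cells (log2 -0.60 ± 0.15, adjusted p = 0.0409). The Cd82 call was lost without KO FoxP3+CD25- replicate 1 (-0.50) or replicate 2 (-0.70), or without KO Treg replicate 2 (-0.42).

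Itga6, Cd81 and Icam1 lay between the KO Treg and KO non-Treg levels instead. Itga6, at 259 and 257 CPM, was higher than in KO non-Treg cells, with 173 and 182 (log2 0.54 ± 0.11, adjusted p = 0.0338), and below the 275 and 310 of KO Treg cells. That call was lost without any 1 of the 4 libraries (0.50 to 0.58). Cd81 had 63.4 and 53.2 CPM, between KO non-Treg (41.9 and 25.6) and KO Treg libraries (88.0 and 89.9), and Icam1 had 57.2 and 55.3 CPM, between 38.2 and 48.6 in KO non-Treg and 71.0 and 87.4 in KO Treg libraries. Neither was called against either group. The mouse block called Cd81 against both (log2 0.81 and -0.62), the latter also called with the compared groups alone, and Icam1 against KO Treg cells (-0.49). DESeq2 and a fit without a filter also called Cd81 against KO non-Treg cells (0.79 and 0.80), as did the fit without KO non-Treg replicate 1 (1.18). Itgal, at 957 and 650 CPM, and its partner Itgb2 lay below both groups. With the mouse block, Itgal was called against KO non-Treg and KO Treg cells (log2 -0.55 and -0.62), as was Itgb2 (-0.32 and -0.28). With group means and the filter neither was called, though DESeq2 and the fit without a filter called Itgal against KO Treg cells (-0.61 for each). Against KO non-Treg cells, the fit without a filter and the mouse block called Itga4 (-0.52 for each). Cd82 was called there by these (-0.65 for each), by DESeq2 (-0.66) and with the replicate number as a block (-0.65), which also called Itgal against both groups (-0.55 and -0.62) and Icam1 against KO Treg cells (-0.49). The mouse block also called Cd48, Itgav and Cd9 against KO Treg cells (-0.44, -0.37 and 0.45).

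**Figure D5:**
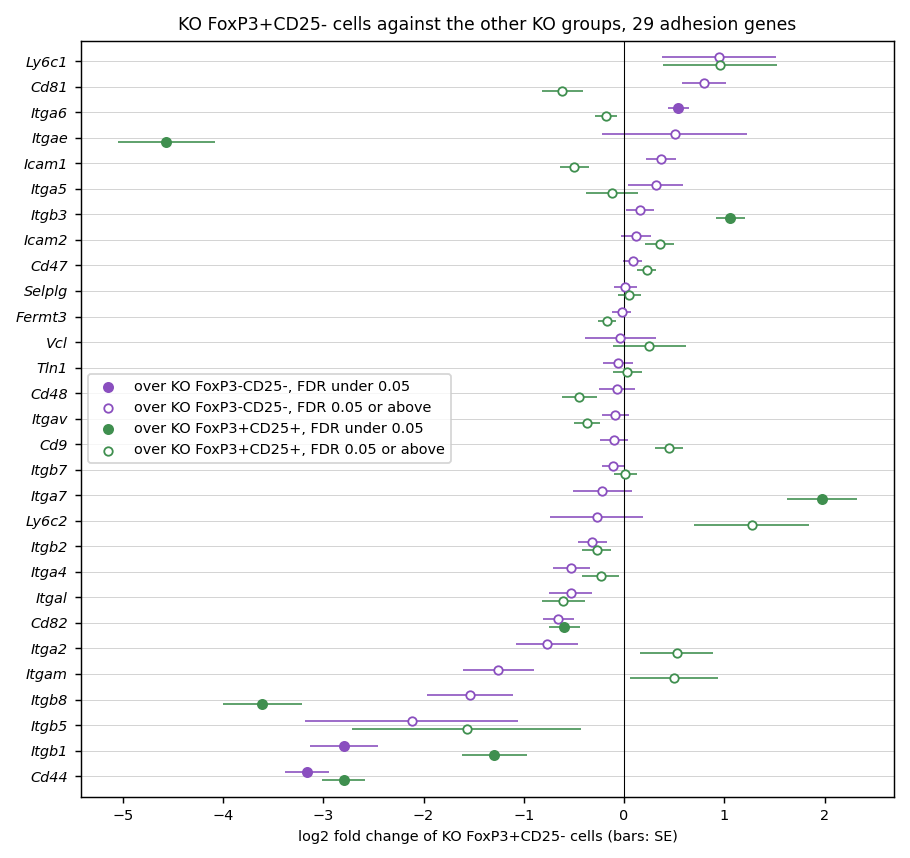
log2 fold change (x, bars are SE) of KO FoxP3+CD25- cells over KO non-Treg (purple) and KO Treg cells (green) for 29 adhesion genes (y), filled where the adjusted p was under 0.05. Cd44 and Itgb1 are lower against both groups, while Itgae, Itgb8, Itgb3 and Itga7 are called only against KO Treg cells.

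KO FoxP3+CD25- cells were also compared with the WT groups, using the same FoxP3+CD25- libraries. With no WT FoxP3+CD25- libraries, sort and genotype differ together in these comparisons and cannot be told apart. Against WT non-Treg cells, 1 of 29 members was higher, against 0.355% of all genes, and 2 were lower, against 0.413%. The medians were 0.0014 for the members and -0.0067 for all genes. Cd44 was lower (log2 -2.45 ± 0.22, adjusted p = 0.000922), as was Itgb1 (-1.74 ± 0.33, adjusted p = 0.0440), and Cd81 was higher (1.66 ± 0.22, adjusted p = 0.00744). Without both libraries of WT replicate 1, Cd44 alone stayed called (-2.24). Itgb1 lost its call without WT non-Treg replicate 1 (-1.25) or KO FoxP3+CD25- replicate 1 (-1.87) or 2 (-1.60), and Cd81 without WT non-Treg replicate 1 (1.43) or KO FoxP3+CD25- replicate 1 (1.54). Against WT Treg cells, 3 of 29 members were higher, against 3.88% of all genes, and 7 were lower, against 7.34%. The medians were -0.18 for the members and 0.015 for all genes. Itgae (log2 -5.01 ± 0.49), Itgb8 (-3.99 ± 0.40), Cd44 (-3.36 ± 0.22), Itgb1 (-1.81 ± 0.33), Cd82 (-0.81 ± 0.15), Icam1 (-0.64 ± 0.15) and Itga6 (-0.47 ± 0.11) were lower. Itga7 (2.39 ± 0.36), Itgb3 (1.62 ± 0.15) and Cd9 (0.51 ± 0.14) were higher. Leaving out KO FoxP3+CD25- replicate 1 ended the calls of Cd82 (-0.71), Icam1 (-0.67), Itga6 (-0.48) and Cd9 (0.48), and replicate 2 those of Itgb1 (-1.66), Icam1 (-0.60), Itga6 (-0.45) and Cd9 (0.55). Leaving out WT Treg replicate 1 ended those of Icam1 (-0.55) and Cd9 (0.33), as did leaving out both libraries of WT replicate 1, and leaving out WT Treg replicate 2 that of Itga6 (-0.39). Cd9 was also lost with DESeq2, without a filter and with the compared groups alone (0.51, 0.52 and 0.49), and Itga6 with the compared groups alone (-0.50). Other fits added calls against WT Treg cells. Itgal was added without a filter (-0.56), with DESeq2 (-0.57), with the replicate number as a block (-0.59) and without KO FoxP3+CD25- replicate 1 (-0.88). Icam2 (0.48) and Itgav (-0.44) were added with the replicate block, Itgb5 without a filter (-2.86), and all of Icam2 (0.73), Itgav (-0.62), Itgb5 (-3.47) and Ly6c1 (2.07) without WT Treg replicate 2. Cell-state markers differed here too. Against WT Treg cells, 8 of 9 naive genes were higher (median 1.01) and 4 of 13 memory and effector genes lower (median -1.97), as were Cd79b (-2.43) and Zbtb46 (-2.24). Against WT non-Treg cells, 4 of the 13 memory and effector genes were lower (median -2.34) and 0 of 9 naive genes were called. Their part in the members' values was not tested.

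Ly6c1 and Ly6c2 are near copies, and 21.5% of the 50-base windows of Ly6c1 transcripts also occur in Ly6c2. Reads without a unique alignment were tallied apart from the genes, so the levels of both may be too low and are uncertain. Ly6c1, an antigen of memory and circulating T cells, had 9.47 and 40.8 CPM in WT Treg libraries, and the replicates of each group differed widely. In every group replicate 2 had more, from 47.5 against 31.4 CPM in KO FoxP3+CD25- to 40.8 against 9.47 in WT Treg cells. With the mouse as a block, Ly6c1 was higher in KO FoxP3+CD25- cells than in KO non-Treg and KO Treg cells (log2 0.97 and 0.98). Ly6c2 had at most 5.01 CPM. The strand setting of the counting was not given in the sources used here, so reads could not be told apart on exons shared with an opposite gene. Vcl shares 2090 of 8191 exon bases with Ap3m1, Icam1 511 of 4360 with Gm47079, Cd9 218 of 2044 with Gm26728 and Itga4 1124 of 13978 with Cerkl. Itgam shares 3450 of 5024 with Gm49368 on its own strand, and Gm49368 and Gm47079 are not among the counted symbols.

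Other genes of the adhesion machinery give the setting of these results. The shares of all genes called in each comparison, given above for the members, hold for them too. Of 26 tested genes that activate integrins or link them to actin, 0 were higher and 3 lower in WT Treg than in WT non-Treg cells: Actn1, an actin crosslinker (log2 -0.99), Rasa3, which restrains Rap1 (-0.60), and Rasgrp2, the exchange factor that turns Rap1 on (-1.12). In KO Treg cells 1 was higher and 5 lower than in KO non-Treg cells, with Rasa3 (-0.75), Actn1 (-0.94) and Rasgrp2 (-1.03) of lowest p again. In KO FoxP3+CD25- cells these 3 were higher than in KO Treg cells (0.59, 0.98 and 0.86), and 0 were called against KO non-Treg cells. Of 17 other genes of cell-to-cell adhesion, most of the immunoglobulin family, 7 were higher and 1 lower in WT Treg than in WT non-Treg cells, with Slamf1, a self-ligand of lymphocytes (1.62), Epcam, an epithelial adhesion gene (4.09), and Cd99l2 (1.14) of lowest p. In KO, 5 were higher and 1 was lower. Of the 17, 7 had lower levels in KO FoxP3+CD25- than in KO Treg cells, among them Slamf1 (-1.74), Cd200 (-1.59) and Epcam (-2.44), and 4 were lower than in KO non-Treg cells, among them Slamf6 (-0.81), Alcam (-2.70) and Slamf7 (-2.23).

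Of 13 tested selectin and ligand-synthesis genes, 2 were higher and 1 lower in WT Treg than in WT non-Treg cells: Gcnt1, which builds the core 2 glycan of selectin ligands (log2 1.79), Selp, which encodes P-selectin, and the sialyltransferase gene St3gal6 (-1.96). In KO, 0 were higher and 4 lower, with Spn (-0.70), St3gal6 (-1.39) and Tpst2 (-0.49) of lowest p. Gcnt1 had 1.13 and 1.53 CPM in KO FoxP3+CD25- libraries against 8.93 and 9.22 in KO non-Treg libraries. It was lower there than in KO non-Treg cells (-2.72) and in KO Treg cells (-2.98), alongside Cd44 and Itgb1. Of 13 other tetraspanins, 2 were higher and 1 lower in WT Treg cells, with Tspan14 (-0.84), Tspan3 (1.06) and Tspan13 (0.48) called, and in KO 0 were higher and 1, Tspan14, was lower (-0.77). Tspan31 was lower in KO FoxP3+CD25- cells than in KO non-Treg (-1.74), KO Treg (-1.65), WT non-Treg (-1.60) and WT Treg cells (-2.02). In KO FoxP3+CD25- against KO Treg cells, 1 of these tetraspanins was higher and 2 were lower, as were 1 and 1 of the selectin genes. Against KO non-Treg cells the tetraspanins had 0 higher and 1 lower, and the selectin genes 0 and 2. Of 4 further integrin genes that were tested, 0 were called in any contrast, and of 3 other Ly6 genes, Ly6a was lower in WT Treg cells (-1.22) and Ly6e higher in KO Treg cells (0.63), each against non-Treg cells. In KO FoxP3+CD25- against WT Treg cells, 4 activation genes were higher and 0 lower, 1 and 8 of the cell-to-cell adhesion genes, 1 and 3 of the selectin genes, 2 and 3 of the tetraspanins, and 1 and 0 of the Ly6 genes, where Ly6a was the gene called (1.65). KO against WT cells of the same sort gave 0 calls in all of these lists.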

How the data were processed

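RNA-seq of 10 sorted CD4+ T cell libraries was analysed from counts per gene symbol that the authors deposited, not normalized. Per the submitters' processing notes, the authors aligned 50 bp reads to mm10 with HISAT2 (2.1.0) and made the counts with HTSeq (0.11.1). Tallies of unassigned reads were left out; reads on genes were 26.0% to 28.5% of all reads. Positions and exon lengths came from GENCODE M21, which named 1 gene for 95.8% of symbols and for all 33 members. Upstream sequences came from the RefSeq promoter table (GRCm38.p6), which held 24 members.

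The fit used edgeR (4.0.16; limma 3.58.1) in R (4.3.3): filterByExpr with a minimum count of 10, TMM factors, glmQLFit (legacy off) and glmQLFTest across all genes, 1 mean per group and FDR 0.05. SE is the size of the log2 fold change over the root of F. The steps were tested on simulated data. An exact permutation of 2 libraries against 2 cannot pass 0.05. The members and gene lists were chosen with earlier results of these data known. Values by library are given for members called in any contrast, and at most 3 genes of lowest p per other list and contrast are named; Satb1, Foxp3, Il2ra and the alternatives' calls were added.

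Numbers in the labels imply that libraries of a genotype share a mouse. Deviations from group means of same-numbered libraries correlated over genes at 0.303 in WT and 0.421 to 0.445 in KO, and at -0.011 to 0.114 between genotypes. Alternatives were RLE factors, no filter, DESeq2 (1.42.0), the legacy method, compared groups alone, a replicate block by number or mouse, and each library left out. Leaving out both libraries of WT replicate 1, and the upstream motifs, were chosen after seeing the data. Figures used Python (3.11.15) with pandas (2.3.3), numpy (2.4.6) and matplotlib (3.10.9).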

Additional observations from a re-analysis of the deposited data

Results flagged for a closer look

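For 6 members, Treg minus non-Treg went 1 way in both WT mice and the other way in both KO mice, as did 8.10% of all 13796 genes, and the count of 6 of 29 was not tested. The interaction, KO minus WT, was log2 -1.28 for Cd44, -1.57 for Itgb1 and -0.61 for Cd82, and these 3 passed its test with the mouse as a block but not in the edgeR fit with group means and all libraries. Cd44 also passed with DESeq2 and without WT Treg replicate 2 (-1.29 and -1.58). It was -0.19 for Itgb2, -1.98 for Itgb5 and -0.19 for Tln1, which passed neither edgeR test. Itgb5 rests on 2 to 35 counts per library of these groups, and the Itgb2 and Tln1 differences within mice were at most log2 0.28. The cause of these differences was not tested.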

How the results depend on the processing

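All alternatives kept the direction of every member call. Of 302 gene values from alternatives with all libraries, 292 stayed called and 10 did not; with libraries left out, 142 of 204 stayed called. RLE factors and both replicate blocks lost none. Against the 0 members called in KO against WT non-Treg cells, no filter gave 1, DESeq2 3, the compared groups alone 1 and the replicate block by number 2. Against the 3 of 29 members called in KO FoxP3+CD25- against KO non-Treg cells, no filter gave 7 and DESeq2 5. The replicate block by number gave 5 and the replicate block by mouse 10. With the mouse block, the share of all genes called there went from 1.67% to 5.7%. The mouse block gave 15 of 29 members in place of 7 in KO FoxP3+CD25- against KO Treg cells. The share of all genes there went from 7.02% to 15.1%. For the interaction, DESeq2 gave 1 and the mouse block 3 in place of 0, where the mouse block called 1.08% of all genes. Shares of all genes called are given for the full edgeR fit and the mouse block only. Counts from the other fits, including those with libraries left out, have no such share beside them. The mouse block could not be fitted between genotypes, where mouse and genotype coincide. With a library left out, calls ranged from 8 to 12 (WT Treg against WT non-Treg, 11 in the full fit), 6 to 7 (KO Treg against KO non-Treg, 11 in the full fit), 4 to 6 (KO FoxP3+CD25- against KO Treg), 1 to 4 (against KO non-Treg), 1 to 3 (against WT non-Treg), 6 to 13 (against WT Treg, 10 in the full fit) and 0 to 2 (interaction). In these fits a lone library is assumed to vary like the other groups, and there are fewer samples; beyond that, the cause of the changes was not tested. With 2 libraries a group and a floor of 0.242 to 0.492 CPM, small differences in members such as Itga2, Itgam, Itgb5 and Ly6c2 were not resolved.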
